A study of Mus musculus with 8 samples.

Results

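Crypts of Lgr4 null mice were compared with wild-type crypts on 6 of the 8 two-colour arrays of the series, those that had no LiCl in their titles: 2 arrays each from cultures at day 0, at day 0.5 and at day 1. The members of this comparison are those 6 arrays, and the genes described are those whose ratio had the same sign on all 6. Null crypts came from mice with a gene-trap allele of Lgr4 (also called Gpr48), back-crossed onto the outbred CD1 strain, and wild-type crypts came from CD1 mice. RNA of both genotypes was hybridised together on each array, and the labels give the same day of culture for both. The other 2 arrays held day 1 crypts with LiCl, an inhibitor of the kinase GSK3. The labels state no age, no sex and no number of pooled animals for these arrays, and a gene trap can leave some normal transcript.

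Lgr4 sits in the cell membrane and binds R-spondins. These secreted factors keep Frizzled receptors on the cell surface and so make a cell more sensitive to Wnt ligands. In the small intestine Wnt signalling maintains the stem cells at the crypt base and the maturation of Paneth cells, which sit beside them and secrete lysozyme, alpha-defensins and other antimicrobial proteins. Enterocytes, the absorptive cells that leave the crypt for the villus, lose that signal as they differentiate.

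Over the 6 arrays, several Paneth cell products, crypt base stem cell genes and ribosomal protein genes fell in null crypts. Reg3 lectins, some lipid and bile acid handling genes of enterocytes and some drug-metabolising enzymes rose. The lowest mean was that of Lyz1, the Paneth cell lysozyme, 13.6-fold lower. The highest was that of Reg3b, a secreted antimicrobial lectin, 11.7-fold higher. Lgr4 itself had no probe under its name and was not analysed here, so the genotype was not checked on the arrays. Of the marker genes of the crypt that were looked up, Olfm4, Muc2, Alpi and Mki67 also were not analysed here.

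Values are log2 ratios of null over wild type, so -1 is a 2-fold lower and 1 a 2-fold higher level in null crypts. That direction is likely, not certain: it rests on the labels, which put the null RNA in channel 1 of every array, and in part on the lower Paneth cell genes. The base of the logarithm is assumed. Each array was centred on its median over all 38467 probes before probes were averaged by gene. The mean of the 6 arrays was tested against 0 with limma, with day as a random block, because the arrays of 1 day may hold the same RNA. Errors given as ± are limma standard errors, and a gene is said to have risen or fallen where the Benjamini-Hochberg adjusted p over 15123 genes was under 0.05. The labels do not say that the arrays of a day came from separate animals or cultures. Spread between the arrays of a day may thus be technical only. Each p-value and standard error of the mean reflects that spread together with the change between days. A gene whose ratio moved with time can therefore fail the test although all 6 arrays have 1 sign. In bulk crypts, fewer cells of a type and less RNA per cell cannot be told apart.

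Over genes, the arrays of a day correlated at 0.382 to 0.804, and arrays of different days at 0.19 to 0.548. These correlations run over genes of the same array design, which are not independent replicates. Probe ratios spread most on day 1, with SDs of 0.473 and 0.441, against 0.296 to 0.335 on the other 4 arrays. Day 0.5 replicate 2 carries the same dye label as replicate 1 of that day. Its deviations from the day mean ran with those of the day 0 and day 1 replicate 2 arrays, whose null RNA has the other dye, so calls are also given without that array.

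Of 15123 genes, 606 passed the test of the mean, or 4.01% of those tested, 328 higher (2.17%) and 278 lower (1.84%). A ratio of 1 sign on all 6 arrays was seen for 2402 genes (15.9%), 1140 of them higher (7.54%) and 1262 lower (8.34%). Both criteria were met by 601 genes, 326 higher and 275 lower, which are called the persistent genes below. Their median mean was 0.60 among the higher and -0.60 among the lower genes, a distance from 0 that both criteria select for. Over the 2402 genes of 1 sign the median absolute mean was 0.39. A mean difference of at least 2-fold was seen for 64 persistent genes, 33 higher and 31 lower. A difference of at least 2-fold on every one of the 6 arrays was seen for 7 genes: Lyz1, Defa31, Defa3 and Cdca7 were lower, and Reg3b, Reg3g and Fabp6 were higher.

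The number of calls depended on single arrays. It was 97 without day 0 replicate 1, 133 without day 0 replicate 2, 28 without day 0.5 replicate 1, 35 without day 0.5 replicate 2, 57 without day 1 replicate 1 and 28 without day 1 replicate 2. With the replicate number as a further block 95 genes passed, and 92 of these were persistent genes. With the dye in which null RNA was labelled as a term in the fit (Cy5 on 4 arrays and Cy3 on 2), 54 genes passed, of which 52 were among the 606. Dye and replicate number differ only for day 0.5 replicate 2, so these 2 fits are not independent checks. With the arrays of each day averaged first, limma called 0 genes, 2375 had an unadjusted p under 0.05, and the smallest adjusted p was 0.0768. There were 21 persistent genes, 11 higher and 10 lower, that passed in all 6 fits without 1 array, and all 21 also passed with the replicate block and with the dye term. The higher ones were Reg3b, Reg3g, Reg3a, Fabp6, Cst3, Arcn1, Sec24d, Nckap1, Frk, Prcp and Enpep, and the lower ones Lyz1, Defa31, Defa3, Lyz2, Ang4, Itln1, Ccl9, Fxyd3, Ifitm2 and Itgb3bp. They are called the 21 stable genes below. Of the 78 named genes that passed, 33 passed in none of the fits without 1 array.

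**Figure D1:**
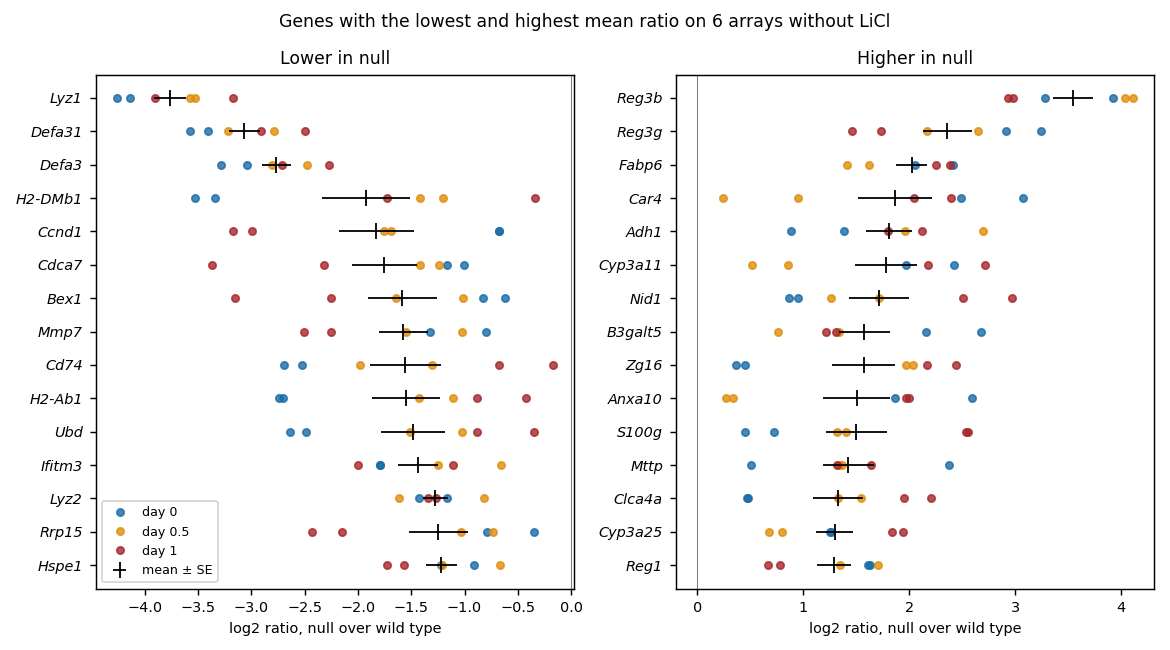
Log2 ratio of null over wild type (x axis) of the 15 persistent genes with the lowest mean (left) and the 15 with the highest mean (right), 1 row a gene. Points are the 6 arrays, coloured by day, and the cross and bar are the mean ± limma SE. Lyz1, Defa31 and Defa3 lie below -2 on every array. The points of Ccnd1 and Cd74 separate by day, and for H2-DMb1 only the day 0 points stand apart.

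Promoters are shown first for the 3 genes that were at least 2-fold higher on every array (Reg3b, Reg3g and Fabp6), and for Lyz1 and its neighbour Lyz2. Lyz1 and Lyz2 are a duplicated pair of neighbours, and Reg3b and Reg3g are related genes that lie farther apart on the same chromosome. A long probe could therefore bind both transcripts of a pair. Sequences are from RefSeq on GRCm38.p6, the 120 bases before the transcription start, read 5′ to 3′ on the gene's strand. Of the 601 persistent genes, 491 matched a RefSeq promoter. Capitals mark the bases at which the lysozyme promoters differ.
Lyz1, chr10:117292869-117292988, minus strand: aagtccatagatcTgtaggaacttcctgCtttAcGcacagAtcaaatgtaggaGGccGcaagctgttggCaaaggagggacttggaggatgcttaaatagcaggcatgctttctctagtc
Lyz2, chr10:117282273-117282392, minus strand: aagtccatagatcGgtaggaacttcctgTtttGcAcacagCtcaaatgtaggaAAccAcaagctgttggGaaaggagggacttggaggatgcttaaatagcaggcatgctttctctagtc
These were equal at 111 of 120 bases (92.5%). In the next set capitals mark a TATA element, searched as TATAAA on both strands (it reads TTTATA in Fabp6, where it lies on the other strand).
Reg3b, chr6:78370765-78370884, plus strand: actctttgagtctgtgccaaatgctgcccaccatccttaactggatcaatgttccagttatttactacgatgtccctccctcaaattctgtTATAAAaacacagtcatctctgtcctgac
Reg3g, chr6:78468875-78468994, minus strand: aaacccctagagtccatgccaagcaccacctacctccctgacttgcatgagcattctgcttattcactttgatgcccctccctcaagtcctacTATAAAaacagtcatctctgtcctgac
Fabp6, chr11:43601563-43601682, minus strand: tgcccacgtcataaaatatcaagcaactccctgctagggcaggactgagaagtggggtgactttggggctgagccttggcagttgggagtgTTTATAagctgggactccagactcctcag
Reg3b and Reg3g were equal at 48 of 120 bases (40.0%) without gaps, although both end in nearly the same run after the TATA element. In windows of 250 bases before to 50 after the start, TATAAA was found in 56 of 340 promoters of higher persistent genes (16.5%) and in 20 of 268 of lower ones (7.46%), beside 11.9% of 15217 promoters of all tested genes. A gene may have several promoters in that count, and a match is a description only.

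The Paneth cell genes gave the strongest falls. Of 23 measured genes of the Paneth cell list, 8 fell and 1, Guca2b, rose, beside 1.84% and 2.17% of all genes. The median mean of the list was -0.31, with means from -3.76 to 0.90. Of the 8 that fell, 6 are among the 21 stable genes, Lyz2 included, whose probes differed widely (below). Lyz1 had log2 ratios of -4.26 and -4.14 at day 0, -3.58 and -3.53 at day 0.5 and -3.91 and -3.17 at day 1. All 6 arrays lay far below 0, within a range much smaller than the distance to 0. Its mean was -3.76 ± 0.15 (n = 6, limma adjusted p = 7.5e-05), and its 2 probes averaged -4.19 and -3.34. Defa31, an alpha-defensin, had ratios of -3.40 and -3.58 at day 0, -2.79 and -3.22 at day 0.5 and -2.50 and -2.91 at day 1. Its mean was -3.07 ± 0.15 (limma adjusted p = 0.000127), 8.38-fold lower. Another alpha-defensin, Defa3, had ratios of -3.04 and -3.28 at day 0, -2.48 and -2.81 at day 0.5 and -2.27 and -2.71 at day 1, with a mean of -2.77 ± 0.14. Both defensins were lowest on the day 0 arrays, but the F-test of equal day means did not pass (limma adjusted p = 0.149 and 0.193). Defensins are a family of near-identical copies, so their probes may share signal.

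Other Paneth cell products fell by less. Ang4, an antimicrobial ribonuclease, had ratios of -0.86 and -1.57 at day 0, -0.84 and -1.17 at day 0.5 and -1.13 and -1.13 at day 1. Itln1, a lectin that binds microbial sugars, had ratios of -1.33 and -1.15 at day 0, -1.02 and -0.98 at day 0.5 and -1.0 and -0.88 at day 1. These genes kept a ratio near 2-fold at each time, with means of -1.12 ± 0.12 and -1.06 ± 0.08 (limma adjusted p = 0.008 and 0.00129). Defa20 had a lower mean too (-0.80 ± 0.14, adjusted p = 0.0305), and passed in 0 of the 6 fits without 1 array. Defa21, also an alpha-defensin, averaged -0.05 and did not pass (limma adjusted p = 0.852). Lyz2, the lysozyme of macrophages, had a mean of -1.27 ± 0.12, but its 4 probes averaged -3.17, -1.15, -0.72 and -0.06. The probe with the lowest value lay near Lyz1's, and signal shared with Lyz1 was not tested.

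Mmp7, the protease that activates alpha-defensins, departed from the other list genes that fell. Its ratios were -0.80 and -1.32 at day 0, -1.02 and -1.55 at day 0.5 and -2.25 and -2.51 at day 1. The day 1 arrays were the lowest of the 6 and did not overlap the earlier ones. Its mean was -1.58 ± 0.23 (limma adjusted p = 0.0253), and the day means differed (F-test adjusted p = 0.036). It was alone in this among the 8 list genes that fell. In the whole list the day means of 5 of 23 measured genes differed, beside 6.26% of all genes. Guca2b, a peptide that regulates intestinal fluid secretion, rose, with ratios of 0.26 and 0.28 at day 0, 0.44 and 0.88 at day 0.5 and 0.77 and 1.04 at day 1 (mean 0.61 ± 0.12, adjusted p = 0.0422, and 0.0648 with the replicate block). The list medians were -0.62 and -0.63 on the day 0 arrays and -0.30 and -0.15 on the day 1 arrays.

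Reg family lectins, which bind bacterial cell walls or act as growth factors, gave the strongest rises. Reg3b had ratios of 3.92 and 3.28 at day 0, 4.04 and 4.11 at day 0.5 and 2.93 and 2.98 at day 1. Day 1 was the lowest of the 3 times, though every array was more than 2 log2 units above 0. Its mean was 3.54 ± 0.19 (limma adjusted p = 0.000165), and the F-test of equal day means did not pass (adjusted p = 0.0518). Reg3g had ratios of 3.24 and 2.91 at day 0, 2.17 and 2.64 at day 0.5 and 1.73 and 1.46 at day 1. Its mean was 2.36 ± 0.23 (adjusted p = 0.00751), 5.13-fold higher, and it was the only one of the 21 stable genes whose day means differed (F-test adjusted p = 0.0191). The days did not overlap for Reg3g, and the ratio was lowest at day 1. Reg1 followed with ratios of 1.61 and 1.63 at day 0, 1.34 and 1.70 at day 0.5 and 0.78 and 0.67 at day 1 (mean 1.29 ± 0.16, adjusted p = 0.0169). Reg3a had nearly the same ratio on every array, between 0.47 and 0.62, with a mean of 0.56 ± 0.06 (adjusted p = 0.008). These were 4 of 7 genes with a Reg symbol, beside 2.17% of all genes that rose, a grouping made after the values were seen.

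The antimicrobial and inflammatory list, which holds the Reg genes, had 29 measured genes. Of these, 5 rose, beside 2.17% of all genes, 0 fell, and 10 were above 0 on all 6 arrays, beside 7.54%. Of the 5 that rose, 4 were the Reg genes already described. The only other riser was Duoxa2, the maturation factor of an oxidase that makes hydrogen peroxide at the mucosa. Its ratios were 1.74 and 1.90 at day 0, 0.51 and 0.39 at day 0.5 and 1.03 and 0.88 at day 1 (mean 1.07 ± 0.21, adjusted p = 0.0375). The day 0 arrays were the highest, and the day means differed (F-test adjusted p = 0.0074). Its call was lost in each fit without 1 array and with the replicate block (adjusted p = 0.065).

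Some enterocyte genes rose. Of 23 measured, 7 rose, beside 2.17% of all genes, and 0 fell. A ratio above 0 on all 6 arrays was seen for 10, beside 7.54% of all genes, and the median mean was 0.66. Fabp6, the bile acid binding protein of ileal enterocytes, had ratios of 2.41 and 2.05 at day 0, 1.61 and 1.41 at day 0.5 and 2.39 and 2.25 at day 1. Day 0.5 was the lowest time, with all arrays above 1. Its mean was 2.02 ± 0.15 (limma adjusted p = 0.00129), 4.06-fold higher, and the F-test of equal day means did not pass (adjusted p = 0.0574). Enpep, a brush border aminopeptidase, had ratios of 0.81 and 0.63 at day 0, 0.72 and 0.55 at day 0.5 and 0.71 and 0.59 at day 1 (mean 0.67 ± 0.07, adjusted p = 0.00752). Its 2 probes averaged 0.32 and 1.02. Fabp6 and Enpep were the enterocyte genes among the 21 stable ones.

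Genes of chylomicron assembly, the export of dietary fat, also rose. Mttp, which loads lipid onto apolipoprotein B, had ratios of 2.38 and 0.50 at day 0, 1.34 and 1.36 at day 0.5 and 1.32 and 1.64 at day 1. The day 0 arrays were its highest and its lowest, and the mean was 1.42 ± 0.24 (adjusted p = 0.0295). The apolipoproteins Apoa1, Apoa4 and Apoc3 had means of 0.95 ± 0.20, 0.83 ± 0.13 and 0.70 ± 0.14, with adjusted p of 0.0431, 0.0259 and 0.0375. Apoa1 was at 0.28 and 0.17 at day 0 and between 1.10 and 1.60 later (F-test of days adjusted p = 0.0143). Vil1, a structural protein of microvilli, averaged 0.66 but did not pass (adjusted p = 0.09). The calls of Mttp and of these apolipoproteins were each lost in at least 4 of the 6 fits without 1 array, and with the replicate block (adjusted p = 0.0521 to 0.074).

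Of 31 measured bile acid and drug metabolism genes, 12 rose, beside 2.17% of all genes, and 0 fell. On all 6 arrays 18 were above 0, beside 7.54% of all genes. Cyp3a11, a main drug-oxidising cytochrome of mouse gut and liver, had ratios of 1.97 and 2.42 at day 0, 0.52 and 0.85 at day 0.5 and 2.18 and 2.71 at day 1. Its relative Cyp3a25 had ratios of 1.25 and 1.26 at day 0, 0.68 and 0.80 at day 0.5 and 1.94 and 1.84 at day 1. Both were nearest to 0 at day 0.5, whose arrays overlapped those of no other time. Their means were 1.78 ± 0.29 and 1.3 ± 0.17 (limma adjusted p = 0.0289 and 0.0218). The 3 probes of Cyp3a25 averaged between 0.97 and 1.84. The glucuronosyltransferase Ugt2b5 rose by 1.22 ± 0.25, the carboxylesterase Ces1f by 0.99 ± 0.15, the drug exporter Abcg2 by 0.69 ± 0.10 and the bile acid receptor Nr1h4 by 0.54 ± 0.11 on the log2 scale. Ugt2b5 reached 0.92 on 1 day 0 array and 0.08 on the other. With the replicate block, 3 of the 12 passed, Cyp3a11 (adjusted p = 0.0521), Ugt2b5 (0.0564), Abcg2 (0.0521) and Nr1h4 (0.0779) not among them. Fabp6 was the only one of the 12 to pass in all 6 fits without 1 array. The list medians on the 6 arrays were 0.21 and 0.24 at day 0, 0.47 and 0.42 at day 0.5 and 1.09 and 1.01 at day 1, so the rise was largest at day 1. The list was chosen with earlier results of these data known. In groups formed by symbol after the values were seen, 5 of 70 cytochrome P450 and 1 of 19 glutathione S-transferase genes rose. So did 3 of 19 UDP-glucuronosyltransferases, 3 of 11 carboxylesterases and 3 of 12 sulfotransferases, and 0 genes of these groups fell.

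**Figure D2:**
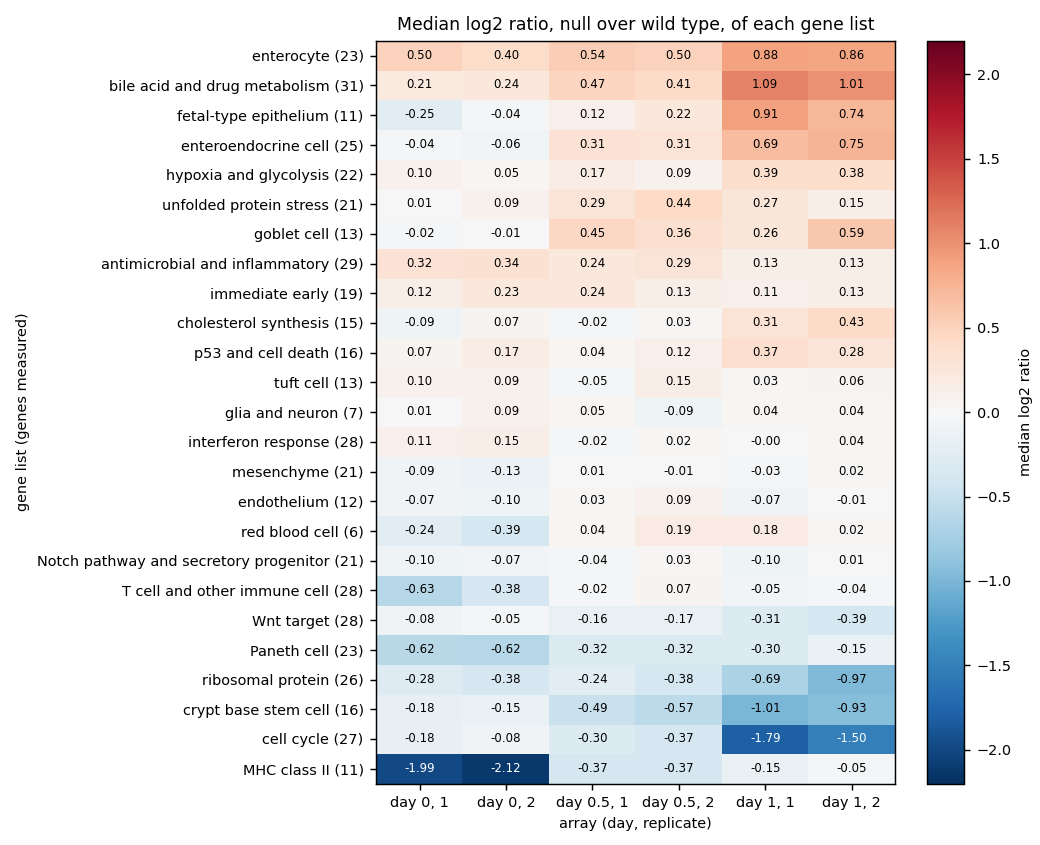
Median log2 ratio of null over wild type (colour and number) of 25 gene lists (rows, with the number of genes measured) on each of the 6 arrays (columns, day and replicate). The Paneth cell row is below 0 and the enterocyte row above 0 on every array, while MHC class II is lowest at day 0 and cell cycle lowest at day 1.

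Coat proteins of the vesicles that run between the endoplasmic reticulum and the Golgi gave 2 of the 21 stable genes. Arcn1, a subunit of the COPI coat, had ratios of 1.28 and 1.29 at day 0, 1.67 and 1.22 at day 0.5 and 0.67 and 1.11 at day 1 (mean 1.21 ± 0.13, adjusted p = 0.008). Sec24d, a cargo adaptor of the COPII coat, had ratios of 0.94 and 0.98 at day 0, 0.59 and 0.85 at day 0.5 and 1.15 and 1.45 at day 1 (mean 0.99 ± 0.11, adjusted p = 0.0111). Of 20 COPI and COPII coat genes, grouped by symbol after the values were seen, 4 rose, beside 2.17% of all genes, and 0 fell. The others of the 4 were Sec23a (0.98) and Sec24a (0.34), which did not pass with the replicate block (adjusted p = 0.0521 and 0.072). The unfolded protein stress list had 4 risers and 0 fallers among 21 measured genes, of which 1 passed with the replicate block, 0 without day 0.5 replicate 2 and 0 in all 6 fits without 1 array. Hyou1, a chaperone of the endoplasmic reticulum, had ratios of 0.84 and 1.09 at day 0, 1.80 and 1.93 at day 0.5 and 0.80 and 1.21 at day 1 (mean 1.28 ± 0.17, adjusted p = 0.0211). It was highest at day 0.5.

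Other stable risers had no common list. Cst3, a secreted inhibitor of cathepsins, had ratios of 1.38 and 1.40 at day 0, 1.24 and 0.97 at day 0.5 and 1.27 and 1.03 at day 1. Its mean was 1.22 ± 0.08 (limma adjusted p = 0.00108), and its day means differed by at most 0.29. Nckap1, part of the complex that starts actin branching, averaged 0.97 ± 0.09, the epithelial kinase Frk 0.72 ± 0.07 and the lysosomal peptidase Prcp 0.67 ± 0.07. Among the stable falls, the chemokine Ccl9 had ratios of -1.03 and -0.81 at day 0, -0.83 and -1.0 at day 0.5 and -1.56 and -1.28 at day 1 (mean -1.08 ± 0.11, adjusted p = 0.0079). Fxyd3, a regulator of the sodium pump, averaged -1.04 ± 0.10, and Ifitm2, an interferon-induced membrane protein, averaged -0.93 ± 0.10. Itgb3bp, a centromere protein, averaged -0.81 ± 0.08, with 2 probes at -1.57 and -0.05.

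Several stem cell and Wnt target genes fell, most of them with their lowest ratios at day 1. Of 16 measured crypt base stem cell genes, 4 fell, beside 1.84% of all genes, and 0 rose. On all 6 arrays 9 were below 0, beside 8.34% of all genes. Of 28 measured Wnt targets, 5 fell and 0 rose: Ccnd1, Mmp7, Ascl2, Rnf43 and Lgr5. The list medians were -0.62 for the stem cell genes and -0.18 for the Wnt targets. None of these calls held in all 6 fits without 1 array, and 0 held without day 0.5 replicate 2. With the replicate block 1 stem cell gene (Rnf43) and 2 Wnt targets (Rnf43 and Mmp7) passed, while Ccnd1, Ascl2, Lgr5 and Cdca7 had adjusted p of 0.0638, 0.0521, 0.0728 and 0.0588. Ccnd1, cyclin D1, had ratios of -0.67 and -0.68 at day 0, -1.69 and -1.76 at day 0.5 and -3.17 and -2.99 at day 1. The days did not overlap, and each later time was lower. Its mean was -1.83 ± 0.35 (adjusted p = 0.0372), 3.55-fold lower, and the day means differed (F-test adjusted p = 0.00144).

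Ascl2, a transcription factor that sets stem cell identity, had ratios of -0.71 and -0.47 at day 0, -0.95 and -1.41 at day 0.5 and -1.72 and -1.32 at day 1 (mean -1.10 ± 0.17, adjusted p = 0.0259). Rnf43, a ubiquitin ligase that removes Frizzled receptors from the surface, had ratios of -0.64 and -0.36 at day 0, -1.17 and -1.12 at day 0.5 and -1.20 and -1.11 at day 1. Its day 0.5 and day 1 ratios were alike, but the F-test of equal day means did not pass (limma adjusted p = 0.0647). Lgr5, the stem cell receptor related to Lgr4, had ratios of -0.24 and -0.23 at day 0, -0.64 and -0.94 at day 0.5 and -1.19 and -0.99 at day 1 (mean -0.70 ± 0.14, adjusted p = 0.0417). The day 0 values of Lgr5 were the nearest to 0, and the day means differed (F-test adjusted p = 0.0472). Axin2, a negative regulator and common reporter of Wnt signalling, had ratios of -0.04 and -0.07 at day 0, -1.24 and -1.50 at day 0.5 and -1.82 and -1.46 at day 1. All 6 were below 0, yet its mean of -1.02 ± 0.25 did not pass (adjusted p = 0.0629), while its day means differed (F-test adjusted p = 0.00685). Cdca7, a chromatin protein bound by Myc, had ratios of -1.01 and -1.16 at day 0, -1.42 and -1.24 at day 0.5 and -3.37 and -2.32 at day 1 (mean -1.75 ± 0.31, adjusted p = 0.0309). Notch1, a receptor that keeps crypt cells from secretory fates, averaged -0.82 ± 0.18 (adjusted p = 0.0466, and 0.0779 with the replicate block), with day 1 ratios of -1.58 and -1.27.

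Cell cycle genes differed between days far more often than they differed from 0 over the 6 arrays. Of 27 measured, 1 (Ccnd1) fell in the test of the mean, beside 1.84% of all genes, and 11 were below 0 on all 6 arrays, beside 8.34%. The day means of 24 differed in the F-test, which called 6.26% of all genes. The list medians were -0.18 and -0.08 at day 0, -0.30 and -0.37 at day 0.5 and -1.79 and -1.50 at day 1. Only the day 1 arrays thus had a median past 2-fold.

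Many ribosomal protein genes fell. Of 26 measured ribosomal protein genes, 12 fell, beside 1.84% of all genes, and 0 rose. On all 6 arrays 17 were below 0, beside 8.34% of all genes, and the median mean was -0.49. The lowest were Rpl13a (-0.82), Rpl4 (-0.81) and Rpl14 (-0.79), whose day means all differed. Of 70 genes with a cytosolic ribosomal protein symbol, 19 fell and 0 rose, and 45 were below 0 on all 6 arrays. In a group of 54 nucleolar genes of ribosome assembly, 13 fell and 0 rose, and 30 were below 0 on all 6 arrays. Both groups were formed by symbol after the values were seen. Rrp15, which acts in large subunit assembly, had ratios of -0.79 and -0.35 at day 0, -1.03 and -0.74 at day 0.5 and -2.43 and -2.15 at day 1 (mean -1.25 ± 0.28, adjusted p = 0.0483). Its day 1 arrays were far below the others. Hspe1, a mitochondrial chaperonin, had ratios of -1.23 and -0.91 at day 0, -1.21 and -0.67 at day 0.5 and -1.73 and -1.56 at day 1 (mean -1.22 ± 0.14, adjusted p = 0.0147). Of 75 mitochondrial ribosomal genes, also grouped by symbol afterwards, 11 fell and 0 rose. Other groups of protein synthesis by symbol had few calls: of 47 genes with an initiation factor symbol 1 rose (Eif2ak3, a stress kinase that acts on such a factor) and 2 fell (Eif4a3 and Eif2b4), and of 13 aminoacyl-tRNA synthetases limma called 0, with 3 below 0 on all 6 arrays. With the replicate block, 1 of the 26 and 2 of the 70 ribosomal, 0 of the 54 nucleolar and 0 of the 75 mitochondrial ribosomal genes passed. In each of these groups 0 genes passed without day 0.5 replicate 2, and 0 passed in all 6 fits without 1 array. Ribosomal protein genes have many processed pseudogenes, so their probes may bind other copies.

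The E-box CACGTG, which Myc and related factors bind, was found in 44 of 268 promoter windows of lower persistent genes (16.4%) and in 32 of 340 of higher ones (9.41%), beside 8.44% of those of all tested genes. Below are examples from 2 nucleolar genes of the lower set, with the motif in capitals.
Nop2, chr6:125131763-125131882, plus strand: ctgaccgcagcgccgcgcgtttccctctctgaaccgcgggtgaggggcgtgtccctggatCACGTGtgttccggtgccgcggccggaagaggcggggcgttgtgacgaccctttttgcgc
Exosc5, chr7:25659033-25659152, plus strand: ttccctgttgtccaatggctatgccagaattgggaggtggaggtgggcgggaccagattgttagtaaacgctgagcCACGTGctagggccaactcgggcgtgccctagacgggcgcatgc
Nop2, an RNA methyltransferase of the nucleolus, had a mean of -0.61 ± 0.11 (adjusted p = 0.0367), and Exosc5, a subunit of the RNA exosome, of -0.57 ± 0.12 (adjusted p = 0.0445). With the replicate block neither passed (adjusted p = 0.0638 and 0.068). The TCF motif CTTTGAT was found in 4.1% of windows of lower and 2.94% of higher persistent genes, beside 3.12% of those of all tested genes. The STAT motif TTCNNNGAA was found in 7.46% of lower and 6.18% of higher ones, beside 7.64%. Both strands were searched, and CACGTG reads the same on each.

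The MHC class II genes that fell were lowest at day 0. Of 11 measured MHC class II genes, 3 fell and 1, the protease Ctss, rose, 6 were below 0 on all 6 arrays, and the day means of 8 differed. Among all genes 1.84% fell, 2.17% rose, 8.34% were below 0 on all 6 arrays and the day means of 6.26% differed. H2-DMb1, which helps load peptide onto MHC class II, had ratios of -3.34 and -3.53 at day 0, -1.42 and -1.21 at day 0.5 and -1.72 and -0.34 at day 1 (mean -1.93 ± 0.42, adjusted p = 0.0458). Cd74, the invariant chain, had ratios of -2.53 and -2.69 at day 0, -1.30 and -1.98 at day 0.5 and -0.17 and -0.68 at day 1 (mean -1.56 ± 0.33, adjusted p = 0.0457). H2-Ab1, an MHC class II chain, had ratios of -2.75 and -2.70 at day 0, -1.11 and -1.43 at day 0.5 and -0.88 and -0.42 at day 1 (mean -1.55 ± 0.32, adjusted p = 0.0421). In each of these genes the day 0 arrays lay below the other 4. The calls of H2-DMb1, Cd74 and H2-Ab1 were lost in each of the 6 fits without 1 array, and with the replicate block 0 of the 11 passed. Ubd, a ubiquitin-like protein induced by inflammatory cytokines, also fell (mean -1.48 ± 0.30, adjusted p = 0.0421, and 0.0727 with the replicate block), with ratios of -2.64 and -2.49 at day 0, -1.02 and -1.51 at day 0.5 and -0.88 and -0.34 at day 1. Ifitm3, an antiviral membrane protein, did not follow it, with ratios of -1.80 and -1.80 at day 0, -1.25 and -0.66 at day 0.5 and -2.0 and -1.11 at day 1 (mean -1.43 ± 0.19, adjusted p = 0.0212).

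Markers of immune cells moved with the MHC class II genes at day 0. The 28 measured genes of the T cell and other immune cell list had medians of -0.63 and -0.38 on the day 0 arrays, and between -0.05 and 0.07 on the other 4 arrays. Cd3g, part of the T cell receptor, had ratios of -1.21 and -1.30 at day 0, -0.09 and 0.01 at day 0.5 and 0.14 and -0.13 at day 1 (mean -0.43, adjusted p = 0.309). Over the 6 arrays 1 gene of that list fell, Lyz2, and 0 rose. The 4 probes of Lyz2 averaged from -3.17 to -0.06, and signal shared with Lyz1 was not tested. The part of immune cells in the MHC class II ratios was not tested. Of the mesenchyme list 1 of 21 rose, close to the 4.01% called over all genes. It was the basement membrane protein Nid1 (1.71 ± 0.28), which passed in none of the fits without 1 array and not with the replicate block (adjusted p = 0.0536). Endothelial, red blood cell, glial and tuft cell lists of 12, 6, 7 and 13 measured genes had 0 calls by limma in either direction, with median means between -0.04 and 0.07. Vim, the mesenchymal filament, had ratios of -0.68 and -0.48 at day 0, 0.65 and 0.69 at day 0.5 and 0.86 and 1.17 at day 1, so its sign turned between day 0 and later.

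Some of the highest means came from genes with other time courses. Car4, a carbonic anhydrase of the brush border, had ratios of 2.49 and 3.08 at day 0, 0.24 and 0.95 at day 0.5 and 2.04 and 2.40 at day 1 (mean 1.87 ± 0.35, adjusted p = 0.0367). Anxa10, an annexin, had ratios of 1.86 and 2.59 at day 0, 0.27 and 0.33 at day 0.5 and 2.00 and 1.97 at day 1 (mean 1.5 ± 0.32, adjusted p = 0.0446). In both genes the day 0.5 arrays stood apart below the other 4. Others climbed: S100g, a vitamin D dependent calcium carrier of enterocytes, had ratios of 0.45 and 0.72 at day 0, 1.40 and 1.32 at day 0.5 and 2.56 and 2.53 at day 1 (mean 1.5 ± 0.29, adjusted p = 0.0375). Clca4a, a secreted regulator of chloride channels, had ratios of 0.48 and 0.46 at day 0, 1.33 and 1.54 at day 0.5 and 2.2 and 1.95 at day 1 (mean 1.33 ± 0.24, adjusted p = 0.0349). Adh1, an alcohol dehydrogenase that also oxidises retinol, had ratios of 0.88 and 1.38 at day 0, 1.96 and 2.70 at day 0.5 and 2.12 and 1.80 at day 1 (mean 1.81 ± 0.22, adjusted p = 0.0154). Its day mean was highest at day 0.5 (2.33), and the F-test of equal day means did not pass (limma adjusted p = 0.0931). With the replicate block Adh1 passed, and Car4, Anxa10, S100g and Clca4a did not (adjusted p = 0.0595, 0.074, 0.0648 and 0.0608). Each of those 4 also failed in all 6 fits without 1 array.

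Some genes of the other secretory lineages rose. Of 25 measured enteroendocrine genes, 4 rose and 0 fell, beside 2.17% and 1.84% of all genes. Among the 4 were Neurod1, a transcription factor of that lineage (0.70), the hormone Cck (0.65) and Tph1, which makes serotonin (0.64). The lineage's granule protein Chga averaged 0.29 and did not pass (adjusted p = 0.234). Of 13 goblet cell genes, 2 rose and 1 fell, beside the same shares of all genes. The faller was the chemokine Ccl6 (-0.58). The riser with the highest mean, Zg16, a mucus lectin, had ratios of 0.36 and 0.45 at day 0, 2.04 and 1.97 at day 0.5 and 2.17 and 2.44 at day 1 (mean 1.57 ± 0.30, adjusted p = 0.0369). It was close to 0 at day 0 and near 4-fold later. The membrane mucin Muc13 averaged 0.94. Enteroendocrine medians were -0.04 and -0.06 at day 0 and 0.69 and 0.75 at day 1.

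Smaller lists had few calls, to be read against the 4.01% of all genes called and the 2.17% called higher: counts of 1 in a list are near these shares. Of the p53 and cell death list 3 of 16 rose (Apaf1 0.70, Pmaip1 0.60 and Cdkn1a 0.54), and 0 fell. Of the hypoxia and glycolysis list 3 of 22 rose (Pfkfb3 0.78, Egln3 0.75 and Pfkfb4 0.53), and 0 fell, with the probes of Pfkfb4 at 0.11 and 0.95. Of the immediate early list 3 of 19 rose, with Klf4, a factor of differentiated epithelium, at 0.88 ± 0.13, Fos at 0.65 ± 0.11 and Atf3 at 0.44. Of the cholesterol synthesis list 1 of 15 rose, Dhcr7 at 1.10 ± 0.23. Of 28 interferon response genes 1 rose, Irf7 at 0.55, and 1 fell, Ubd. Of 21 genes of the Notch pathway and secretory progenitors Neurod1 rose and Notch1 fell. Of 11 fetal-type epithelium genes 1 rose, Anxa10, and 0 fell. No list was tested as a set. In the lists of this and the preceding paragraph on secretory lineages 0 genes passed in all 6 limma fits without 1 array, and with the replicate block only Neurod1 and Ccl6 passed.

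Persistence of sign did not mean a constant size. The F-test of equal day means called 96 of the 601 persistent genes (16.0%), beside 6.26% of all genes. Of these 96, 44 were higher and 52 lower in null. Among the higher ones 31 were farthest from 0 at day 1 and 10 at day 0, and among the lower ones 47 and 4. Over the 326 higher persistent genes the median of the day means was 0.46 at day 0, 0.50 at day 0.5 and 0.78 at day 1. Over the 275 lower ones it was -0.45, -0.46 and -0.84 in the same order. Day 1 held the value farthest from 0 for 237 of the 326 and 224 of the 275, and the array spread was also largest on that day. Among genes with at least a 2-fold mean, the day means differed least for Lyz2 (0.09), Mttp (0.13), the deubiquitinase Josd2 (0.14), Ang4 (0.22) and Cst3 (0.29). They differed most for Ccnd1 (2.41), H2-DMb1 (2.40), Car4 (2.19), Cd74 (2.19) and H2-Ab1 (2.07). For Lyz2 the value is a mean of 4 probes that differed widely.

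**Figure D3:**
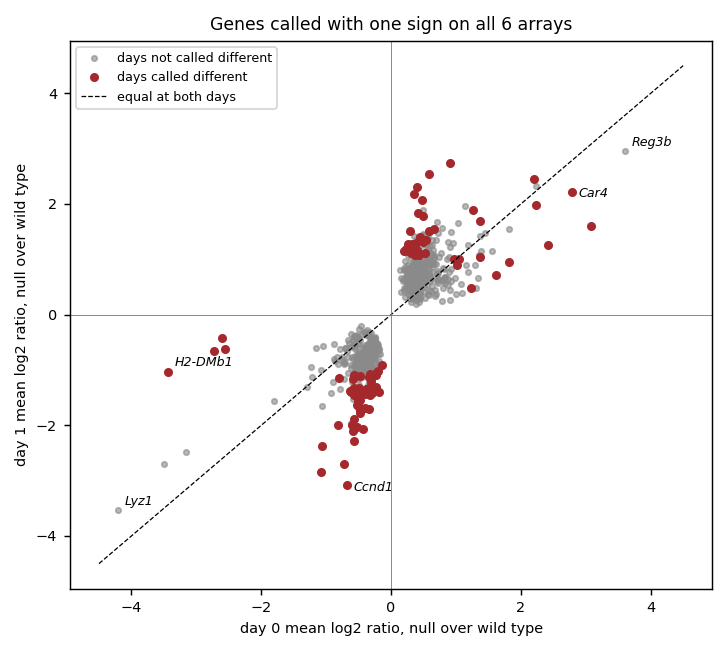
Mean log2 ratio of null over wild type at day 0 (x axis) and day 1 (y axis) of the 601 persistent genes, 1 point a gene. Red marks the 96 genes whose day means differed in the F-test, and the dashed line marks equal ratios. Lyz1 and Reg3b lie near the line, Ccnd1 below it and H2-DMb1 above it.

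The edge of the definition can be read from the genes near it. The persistent gene nearest to 0 had an absolute mean of 0.27, and the median weakest array of the persistent genes was 0.252 from 0. There were 5 genes that passed the test with 1 or more arrays of the other sign: Hunk (-0.99), H2ac19 (0.58), Mrps18a (-0.53), Cftr (-0.52) and Serpinb6a (0.53), with adjusted p between 0.0446 and 0.0499. A further 1801 genes had 1 sign on all 6 arrays without passing, Axin2 among them.

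On the LiCl arrays the persistent genes mostly had the other sign in the deposited values. Of the 326 higher genes, 238 were below 0 on both LiCl arrays, 38 above 0 on both and 50 mixed. Of the 275 lower genes, 209 were above 0 on both, 16 below 0 on both and 50 mixed. Over all genes, 39.3% were opposite to their 6-array mean on both and 18.6% had the same sign on both. The direction of the LiCl ratios is not settled, since those arrays correlated at -0.579 to -0.121 with the other 6 and the labels do not settle what their other channel held. With the sign turned these counts exchange. Fabp6 stood at -1.62 and -1.77 and Ccnd1 at 1.08 and 1.07 with LiCl as deposited, whereas Lyz1 stood at 0.19 and 0.21 and Reg3b at -0.36 and -0.48. Whichever sign applies, the ratios of Lyz1 and Reg3b on those arrays were much nearer to 0 than on the 6 arrays without LiCl.

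**Figure D4:**
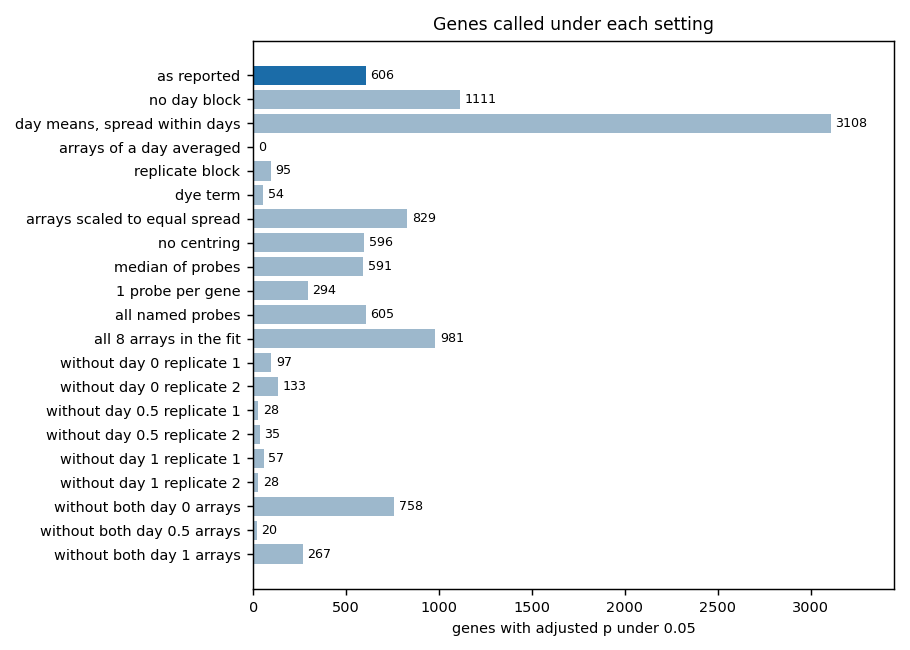
Number of genes with an adjusted p under 0.05 (x axis, from 0) in the test of the 6-array mean, as reported (dark bar, 606) and under each other setting (light bars). Every fit without 1 array calls fewer genes, 28 to 133.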

How the data were processed

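Two-colour MEEBO arrays of 70-base probes were used, with null RNA in channel 1 and wild-type RNA in channel 2. Per the labels' protocols, total RNA was amplified as aminoallyl antisense RNA and coupled to Cy5 or Cy3. At day 0 and day 1 the dye of the null RNA was Cy5 for replicate 1 but Cy3 for replicate 2, and at day 0.5 it was Cy5 for both. The authors deposited 1 log2 ratio per probe and array (the base is assumed), with array medians of -0.006 to 0.001. How background was corrected and ratios were normalized was not given in the sources used here. No intensities were used, so signal over background is unknown, and the number of arrays limits the precision.

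Of 38467 probes, 22941 had 1 symbol, 0 several and 15526 none; 636 named control probes were left out, and 22305 probes of 15123 genes were averaged per gene (5108 genes had several). Columns of other series numbered 0. limma 3.58.1 in R 4.3.3 fitted 1 mean over the 6 arrays with day as a random block (duplicateCorrelation 0.201), eBayes and Benjamini-Hochberg over all genes. A limma F-test compared the 3 day means. The scripts were tested on simulated data. Same-numbered arrays deviated together from their day means (correlations of 0.265 to 0.278), so a fit with the replicate number as a block was also run. Deviations of arrays with the other number mirror these, since each day has 2 arrays. At day 0 and day 1 the replicate number goes with the dye, so pairing and a dye effect cannot be told apart there.

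The arrays, genes and 25 gene lists were chosen with earlier results of these data known. Genes named were the 15 highest and 15 lowest persistent means and up to 3 called genes per list and direction (or the member with the largest mean). The 5 steadiest and 5 most variable over days, defining markers and 3 called genes with mixed sign were also named. The 21 stable genes, Defa20, Defa21, Guca2b, Duoxa2, the apolipoproteins and the drug metabolism examples were added after their values were seen. So were the coat genes, Nop2, Exosc5, Muc13, Mrps18a, Cftr and the groups by symbol. Alternatives covered the block, dye, scaling, centring, probe summary and left-out arrays. Python 3.11.15 with pandas 2.3.3, numpy 2.4.6 and matplotlib 3.10.9 handled the tables and plots.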

Additional observations from a re-analysis of the deposited data

Results flagged for a closer look

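Named genes whose day means differed in the limma F-test were listed for a second look, with the range over the 3 day means on the log2 scale. It was 2.41 for Ccnd1, 1.76 for Cdca7, 1.98 for Bex1, 1.72 for Rrp15, 1.32 for Mmp7, 1.13 for Notch1 and 0.86 for Lgr5, in all of which day 1 was the lowest time. The ribosomal protein genes Rpl13a, Rpl4 and Rpl14 had ranges of 1.01, 0.93 and 0.88. Among genes lowest at day 0, the range was 2.4 for H2-DMb1, 2.19 for Cd74, 2.07 for H2-Ab1 and 1.95 for Ubd.

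Among higher genes, ranges were 1.9 for Zg16, 1.96 for S100g, 1.6 for Clca4a, 1.83 for Nid1, 1.43 for Dhcr7 and 0.97 for Egln3. Genes with their lowest ratio at day 0.5 had ranges of 2.19 for Car4, 1.93 for Anxa10, 1.76 for Cyp3a11 and 1.15 for Cyp3a25. Genes that passed this F-test but not the test of the mean had ranges of 1.59 for Axin2, 1.6 for Vim, 1.26 for Cd3g and 1.22 for Vil1. The other ranges were 1.37 for B3galt5, 1.48 for Reg3g, 0.9 for Reg1 and 0.9 for Hyou1.

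S100b, a glial calcium-binding protein, stood at 0.49 on day 1 replicate 2, far from its other 5 arrays by Dixon's test. Of 89 named genes tested in this way, 1 stood out, and chance gives about 1 in 20.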

How the results depend on the processing

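Calls of the mean numbered 606 (601 with 1 sign on all arrays) and became 1111 (1065) with no day block, 3108 (1855) with day means and the spread within days, 0 (0) with arrays averaged by day, 95 (95) with the replicate block, 54 (54) with a dye term, 294 (294) with 1 probe a gene and 981 (947) with all 8 arrays in the fit. Leaving out both arrays of day 0, day 0.5 or day 1 gave 758 (758, of which 370 shared with the 606), 20 (20) or 267 (267). Without 1 array, calls ranged from 28 to 133. Genes of 1 sign on all arrays numbered 4755 without day 0 and 4114 without day 0.5, where fewer arrays have to agree in sign. Calls of the F-test of days numbered 947 and became 1571 with the replicate block and 239 to 897 without 1 array. For the other changes in the number of calls the cause was not tested. Of the 601 persistent genes, 432 passed in none of the fits without 1 array. Scaling arrays to equal spread (829), no centring (596), the median of probes (591) and all named probes (605) kept the count within 1.5 times. No named gene that passed the test changed sign under any setting run. Most of these genes were selected for 1 sign on all arrays. For those, leaving out, averaging or scaling arrays could not turn the sign, so these settings do not test it. Without intensities, no call could be set against background.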
